A study of Mus musculus with 18 samples.

Results

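The proteasome subunit genes were taken as all genes whose symbol starts with Psma, Psmb, Psmc, Psmd or Psme followed by a digit, without the inducible catalytic subunits Psmb8, Psmb9 and Psmb10. This rule found 41 of the 18193 genes that had a probe set named for 1 gene. They comprised 16 genes of the core particle, 20 of the regulatory cap, 3 of the alternative activators PA28 and PA200 (Psme1, Psme3 and Psme4) and 2 that carry a proteasome-like symbol but are no subunits (Psmc3ip and Psme3ip1). For each gene the brightest probe set over the 18 arrays was used, and sets of the less specific x type were avoided. The PA28 subunit Psme2 could not be read, because its probe set is named for Psme2 and Psme2b together.

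The arrays measured RNA of tumors, labelled as whole tumor and taken from pieces according to the methods, that grew from MC38 cells, a colon carcinoma line of C57BL/6 origin, under the skin of the flank of C57BL/6-Ly5.1 mice that were 6 to 12 weeks old. MEKi/CD40 tumors (n = 4) came from mice given 30 mg/kg of the MEK inhibitor GDC-0623 every day for about 2 weeks together with an agonist anti-CD40 antibody of mouse IgG1 type. MEKi tumors (n = 5) received the inhibitor with control antibody, anti-CD40 tumors (n = 4) received the drug vehicle MCT with anti-CD40, and control tumors (n = 5) received vehicle with control IgG. In all groups antibody was given into the peritoneum on treatment days 3, 5 and 7 and again on the day before analysis, with tumor removal 22 days after the cells were injected. Every array stands for the tumor of 1 animal. The model rests on 1 cell line, the tissue holds host cells next to tumor cells, and a lower signal in such bulk tissue can come from fewer cells of a type or from less RNA per cell, which cannot be told apart. Of 10 epithelial markers, 9 (Epcam, Krt8, Krt18, Krt19, Cldn4, Cldn7, Krt20, Cdx2 and Vil1) lay at the floor of the signal on all arrays, so the epithelial origin of the line was not visible in these tumors.

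The proteasome degrades proteins that carry ubiquitin chains. Its core is a barrel of alpha and beta rings in which Psmb5, Psmb6 and Psmb7 hold the chymotrypsin-like, caspase-like and trypsin-like cutting sites, and its cap consists of a base, whose ATPases unfold the substrate and feed it into the barrel, and a lid that removes ubiquitin. Interferon-gamma induces Psmb8, Psmb9 and Psmb10, which replace the cutting subunits in newly made particles and change the peptides offered on MHC class I, and it also induces the PA28 subunits Psme1 and Psme2. The genes of the constitutive particle are known to be transcribed together, with the factor Nfe2l1 raising them when the proteasome is inhibited.

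The promoters below are shown because they belong to 4 of the 5 subunit genes with the lowest adjusted p-values in MEKi/CD40 tumors, and to the cutting subunits Psmb5 and Psmb6. Each is the stretch before the annotated start on the strand of the gene, from RefSeq on GRCm38.p6. Capitals mark the letters TGACNNNGC, a core of the antioxidant response type element that Nfe2l1 can bind, and CCAAT, a box bound by NF-Y, both searched on either strand, with a match on the opposite strand shown as its reverse complement.
Psma1 at chr7:114276117-114276366, minus strand: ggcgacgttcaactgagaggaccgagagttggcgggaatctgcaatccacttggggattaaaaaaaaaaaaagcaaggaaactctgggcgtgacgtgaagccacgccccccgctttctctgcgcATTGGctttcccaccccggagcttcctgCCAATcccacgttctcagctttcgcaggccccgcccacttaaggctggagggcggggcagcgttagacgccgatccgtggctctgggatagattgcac
Psma2 at chr13:14612992-14613241, plus strand: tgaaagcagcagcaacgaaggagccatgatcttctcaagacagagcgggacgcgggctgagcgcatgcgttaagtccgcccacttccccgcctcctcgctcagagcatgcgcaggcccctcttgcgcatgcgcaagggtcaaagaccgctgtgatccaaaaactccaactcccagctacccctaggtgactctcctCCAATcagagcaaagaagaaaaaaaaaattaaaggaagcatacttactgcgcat
Psmc6 at chr14:45329574-45329823, plus strand: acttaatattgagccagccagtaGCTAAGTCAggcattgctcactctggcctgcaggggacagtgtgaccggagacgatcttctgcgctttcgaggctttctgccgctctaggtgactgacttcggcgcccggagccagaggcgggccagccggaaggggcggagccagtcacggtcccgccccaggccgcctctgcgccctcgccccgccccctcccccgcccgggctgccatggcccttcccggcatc
Psmd12 at chr11:107479278-107479527, plus strand: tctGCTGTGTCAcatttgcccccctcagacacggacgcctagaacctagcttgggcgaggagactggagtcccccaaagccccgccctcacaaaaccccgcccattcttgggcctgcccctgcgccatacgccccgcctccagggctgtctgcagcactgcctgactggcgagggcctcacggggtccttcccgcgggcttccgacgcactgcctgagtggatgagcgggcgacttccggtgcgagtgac
Psmb5 at chr14:54617996-54618095, minus strand: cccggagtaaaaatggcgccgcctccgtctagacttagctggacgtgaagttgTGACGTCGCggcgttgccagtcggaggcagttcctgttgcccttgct
Psmb6 at chr11:70525257-70525356, plus strand: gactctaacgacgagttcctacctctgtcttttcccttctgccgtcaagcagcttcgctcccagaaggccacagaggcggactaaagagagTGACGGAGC

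Promoters of 34 of the 41 genes were searched, each with 250 bases before and 50 bases after the start, and 3 genes had 2 such windows. Chromosome 18, which holds Psma8, was left out of the search, for these genes and for all genes. TGACNNNGC was found in 6 of the 34 genes (17.6%), which were Psmb5, Psmb6, Psmc6, Psmd9, Psmd12 and Psme4, against 14.0% of all 27025 genes searched. CCAAT was found in 15 of the 34 genes (44.1%), among them Psma1, Psma2, Psma3, Psma6 and Psmb3, against 41.1% of all genes. Of the 19 genes in this search that were lower in MEKi/CD40 than in control tumors (below), 4 held TGACNNNGC and 10 held CCAAT. A match describes the letters and does not show a bound site.

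All values are log2 signals of the deposited table, so a difference of 1 is a doubling and levels of different probe sets are not set against each other. Array medians lay between 2.72 and 2.95 and upper quartiles between 8.14 and 8.25, and 53.2% to 55.2% of probe sets lay at the floor of the signal on an array. Within a group, arrays correlated with each other at 0.987 or more over all probe sets. On all arrays 47.6% of probe sets lay at the floor. Of the 41 genes, 39 were above the floor on all 18 arrays. Shares of all probe sets given below include the sets at the floor. For unadjusted p-values and for groups without overlap no share over sets above the floor is given, so those shares are not a like measure for these genes. Psmb11, the thymus-specific beta subunit, was at the floor on all arrays, and Psma8, the testis-specific alpha subunit, was at the floor on 14 arrays. On the other 4 arrays it reached at most 4.46, in a MEKi tumor.

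MEKi/CD40 tumors had lower levels of most proteasome subunits than control tumors. With limma and Benjamini-Hochberg adjustment over all 45037 probe sets, 24 of the 41 genes were lower at an adjusted p under 0.05 and 0 were higher, while 9.37% of all probe sets, and 20.1% of those above the floor on at least 4 arrays, were lower and 5.5% of all were higher. The median difference of the 41 genes was -0.28 on the log2 scale, against 0 for all probe sets and -0.05 for those above the floor. In 26 genes every MEKi/CD40 tumor lay below every control tumor, which was so for 10.3% of all probe sets. The decrease was seen in the core (10 of 14 genes above the floor on all arrays, median -0.31) as well as in the base and lid of the cap (11 of 17 genes, median -0.30). Averaged over the 34 genes of core, base, lid and activators, each MEKi/CD40 tumor lay 0.26 to 0.43 below the control mean, against 0.08 below to 0.10 above it in control tumors.

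**Figure D1:**
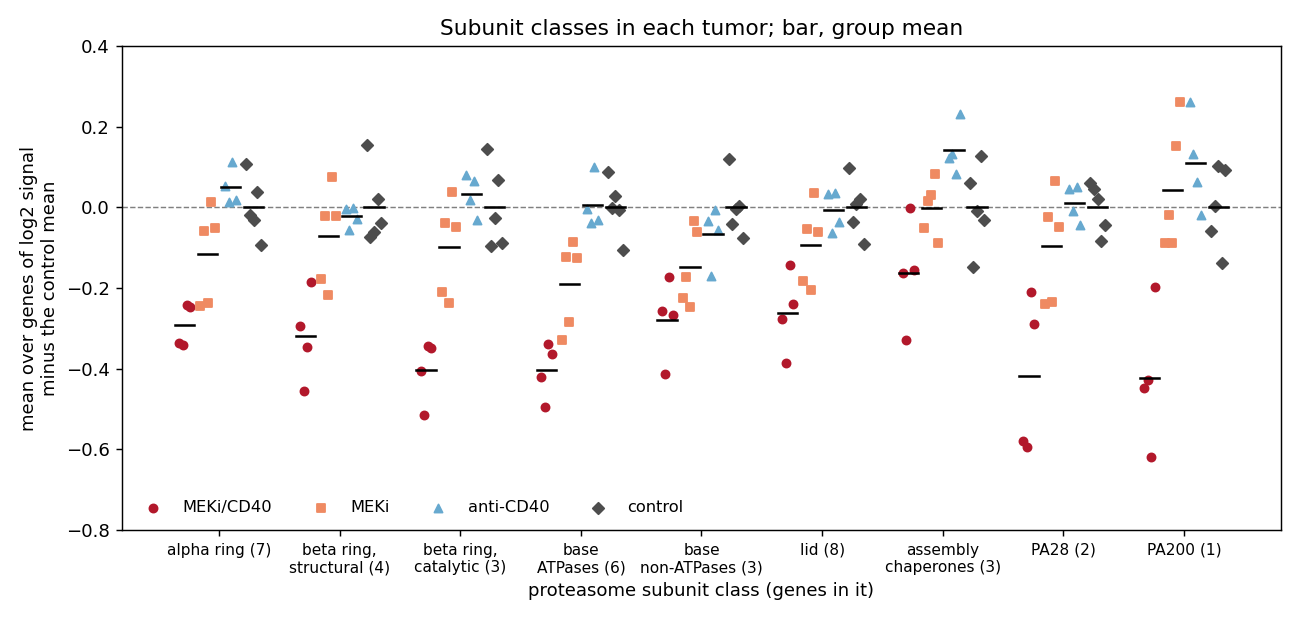
Mean over the genes of each subunit class of the log2 signal minus the control mean (vertical axis), for each of the 18 tumors by class and group, with the number of genes of a class in brackets. Points are tumors and black bars are group means. In the alpha ring, both beta ring classes, the base ATPases, the base non-ATPases and the lid, all 4 MEKi/CD40 tumors lie below all control tumors, while the assembly chaperones overlap.

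**Figure D2:**
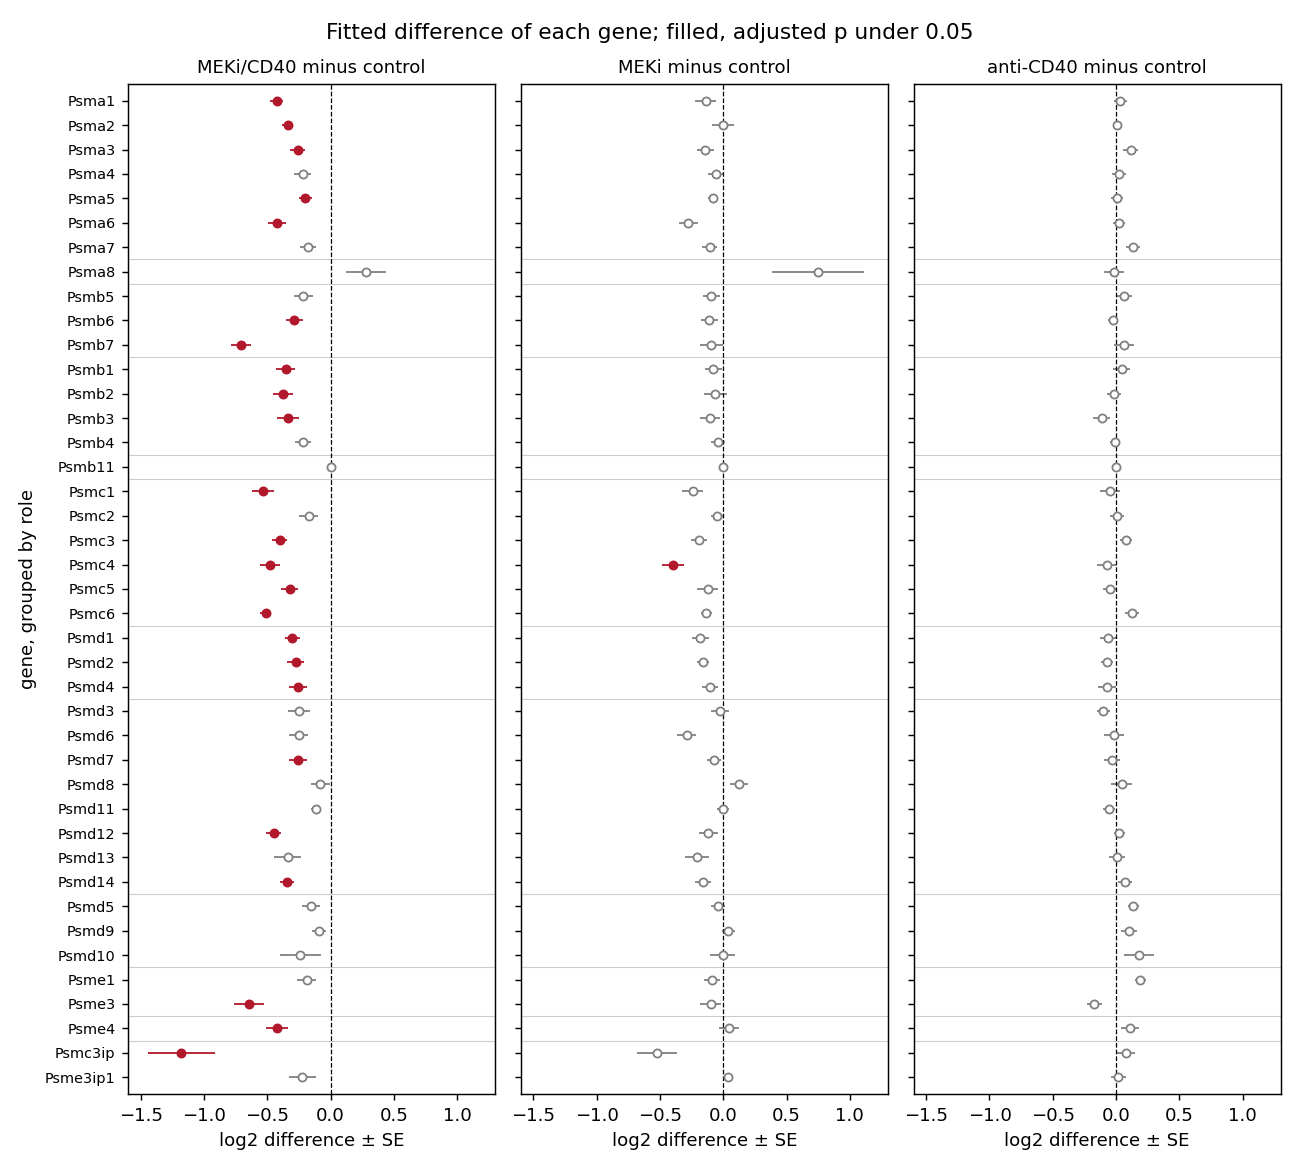
Fitted log2 difference ± SE (horizontal axis) of each of the 41 genes (rows, grouped by role) in MEKi/CD40, MEKi and anti-CD40 tumors minus control tumors. Filled red points passed an adjusted p of 0.05, which are 24 genes in MEKi/CD40, 1 in MEKi and 0 in anti-CD40.

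In the alpha ring, which forms the gate of the core, 5 of 7 genes fell (median -0.26). Psma1 was at 12.90, 13.00, 12.98 and 13.06 in MEKi/CD40 tumors, against 13.50, 13.38, 13.50, 13.36 and 13.31 in control tumors, a difference of -0.43 ± 0.05 (SE; adjusted p = 0.0025 by limma). Psma2 was at 12.99, 13.06, 12.99 and 13.15 in MEKi/CD40 tumors, against 13.47, 13.38, 13.33, 13.42 and 13.33 in control tumors, with a difference of -0.34 ± 0.04 (adjusted p = 0.0033). In both genes the groups did not overlap, and the fitted signals came to 74.5% and 79.1% of control. Psma3, Psma5 and Psma6 also fell, with differences between -0.42 and -0.20. Psma4 (-0.22, adjusted p = 0.075) and Psma7 (-0.18, adjusted p = 0.12) did not pass the test with the probe set used (other sets below).

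In the beta ring 5 of 7 genes fell (median -0.34), and the 3 cutting subunits differed in size. Psmb7, the trypsin-like subunit, was at 10.92, 10.94, 10.87 and 11.07 in MEKi/CD40 tumors, against 11.84, 11.50, 11.63, 11.76 and 11.56 in control tumors. The groups lay clearly apart, with a difference of -0.71 ± 0.08 (adjusted p = 0.0020), or 61.2% of the control signal. Psmb6, the caspase-like subunit, was at 12.87, 12.70, 13.03 and 12.93 in MEKi/CD40 tumors, against 13.24, 13.15, 13.13, 13.24 and 13.09 in control tumors (difference -0.29 ± 0.07, adjusted p = 0.029). Psmb5, the chymotrypsin-like subunit, was at 11.92, 11.74, 12 and 11.88 in MEKi/CD40 tumors, against 12.28, 11.99, 12.09, 12.13 and 12.01 in control tumors. The groups overlapped narrowly, and its difference of -0.22 ± 0.07 did not pass (adjusted p = 0.11). Of the subunits without a cutting site, Psmb1, Psmb2 and Psmb3 fell (-0.37 to -0.34) and Psmb4 had a difference of -0.22 (adjusted p = 0.065). The call of Psmb6 was lost in 6 of 9 fits that left out 1 tumor, with an adjusted p of up to 0.078, while Psmb7, Psma1 and Psma2 passed in all 9.

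In the base of the cap 8 of 9 genes fell (median -0.32). Among its 6 ATPases, 5 fell and the median was -0.44. Psmc6 had the lowest adjusted p of all 41 genes. It was at 12.24, 12.35, 12.36 and 12.31 in MEKi/CD40 tumors, against 12.93, 12.86, 12.82, 12.75 and 12.77 in control tumors (difference -0.51 ± 0.04, adjusted p = 0.00096). Its spread within either group was small, and the fitted signal was 70.2% of control. Psmc1 (-0.54), Psmc3 (-0.40), Psmc4 (-0.48) and Psmc5 (-0.32) fell as well, and Psmc2 had a difference of -0.17 (adjusted p = 0.19). The base subunits without ATPase activity all fell: Psmd1 by 0.30, Psmd2 by 0.28 and the ubiquitin receptor Psmd4 by 0.26 on the log2 scale. Psmd4 was at 12.44, 12.20, 12.47 and 12.43 in MEKi/CD40 tumors, against 12.78, 12.58, 12.64, 12.64 and 12.57 in control tumors. Its adjusted p of 0.043 lay close to the threshold, and its call was lost in 8 of the 9 fits that left out 1 tumor (adjusted p up to 0.093).

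In the lid 3 of 8 genes fell (median -0.25). Psmd14, the enzyme that cuts ubiquitin chains off the substrate, was at 11.90, 11.98, 12.08 and 11.99 in MEKi/CD40 tumors, against 12.46, 12.29, 12.29, 12.40 and 12.23 in control tumors (difference -0.35 ± 0.06, adjusted p = 0.0071). Psmd12, a scaffold subunit, was at 12.71, 12.65, 12.88 and 12.85 in MEKi/CD40 tumors, against 13.31, 13.25, 13.26, 13.15 and 13.14 in control tumors (difference -0.45 ± 0.06, adjusted p = 0.0035). Both genes showed no overlap. Psmd7, the partner of Psmd14, fell by 0.26 (adjusted p = 0.046). Psmd3, Psmd6, Psmd8, Psmd11 and Psmd13 had differences between -0.34 and -0.08 and did not pass the test with the probe set used (other sets below). The 3 chaperones that help to assemble the base, Psmd5, Psmd9 and Psmd10, had differences of -0.16, -0.09 and -0.24, none of which passed the test.

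**Figure D3:**
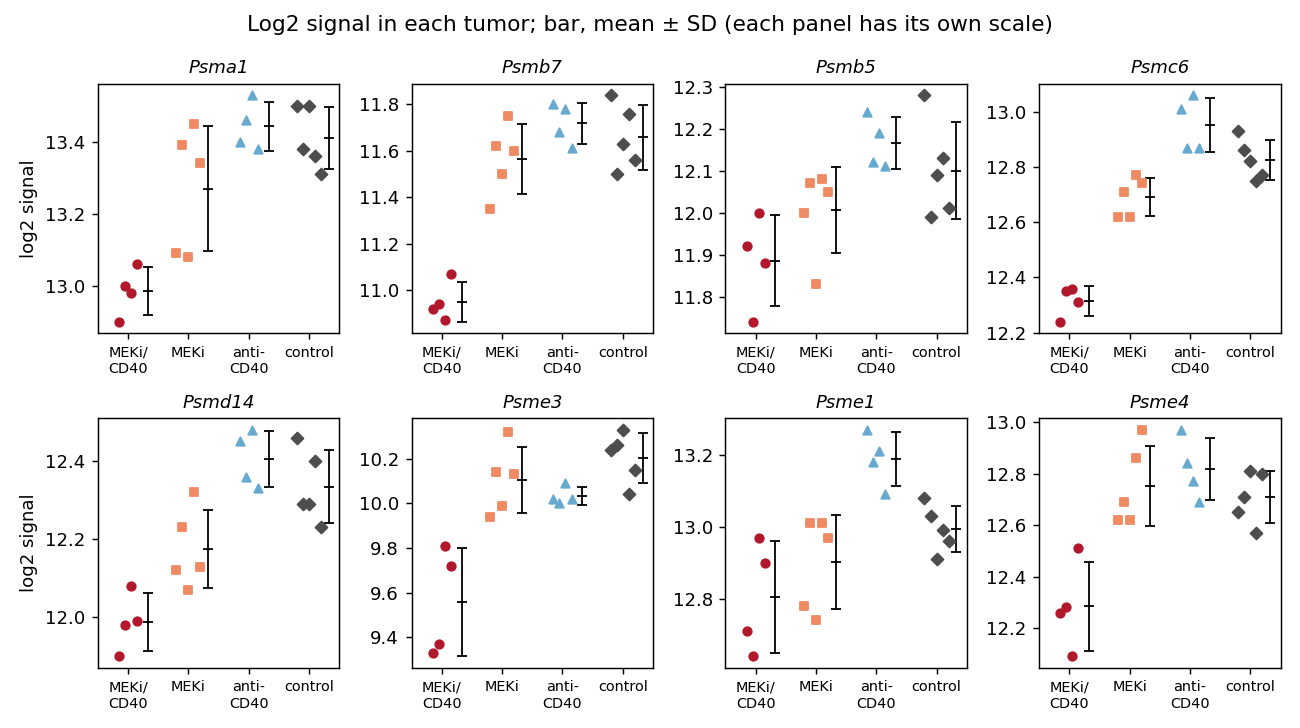
Log2 signal (vertical axis, own scale in each panel) of 8 proteasome genes in each of the 18 tumors, by group. Points are tumors and bars are mean ± SD. Psma1, Psmb7, Psmc6, Psmd14, Psme3 and Psme4 have all 4 MEKi/CD40 tumors below all control tumors, while Psmb5 and Psme1 overlap.

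The alternative activators differed among themselves. Psme3, which forms the PA28 ring found in the nucleus, was at 9.33, 9.37, 9.81 and 9.72 in MEKi/CD40 tumors, against 10.24, 10.26, 10.33, 10.04 and 10.15 in control tumors (difference -0.65 ± 0.12, adjusted p = 0.011). Psme4, which encodes PA200, an activator known for its part in histone turnover, was at 12.26, 12.28, 12.09 and 12.51 in MEKi/CD40 tumors, against 12.65, 12.71, 12.81, 12.57 and 12.80 in control tumors (difference -0.42 ± 0.09, adjusted p = 0.019). Both activators were lower in each MEKi/CD40 tumor than in any control tumor. Psme1, the interferon-inducible PA28 subunit, was at 12.71, 12.64, 12.97 and 12.90 in MEKi/CD40 tumors, against 13.08, 13.03, 12.91, 12.99 and 12.96 in control tumors. Its difference of -0.19 ± 0.07 did not pass the test (adjusted p = 0.16). The call of Psme4 was lost in 3 of 9 fits without 1 tumor (adjusted p up to 0.057).

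The most negative difference of the 41 genes belonged to Psmc3ip, a partner of the meiotic recombinases that is no proteasome subunit. It was at 7.73, 7.48, 8.84 and 8.26 in MEKi/CD40 tumors, against 9.20, 9.45, 9.28, 9.14 and 9.22 in control tumors (difference -1.18 ± 0.27, adjusted p = 0.024). MEKi/CD40 tumors spread widely here, and the call was lost in 6 of 9 fits without 1 tumor (adjusted p up to 0.070). The only difference above 0 was that of the testis form Psma8, at 0.28 ± 0.16 (adjusted p = 0.36), with all MEKi/CD40 and control tumors near the floor (2.42 to 3.12 against 2.46 to 2.62).

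A second reading came from the other probe sets of these genes. Of 28 further sets above the floor on at least 4 arrays, from 17 genes, 26 had a difference below 0, 15 were lower at an adjusted p under 0.05 and 0 were higher. They include dim sets and sets of the x type. The 2 other sets of Psmc6 had differences of -0.39 (adjusted p = 0.099) and -0.31 (adjusted p = 0.034), and the second set of Psme3 had -0.34 (adjusted p = 0.026). The 4 other sets of Psme4 had -0.83, -0.66, -0.44 and 0.11, of which the first 3 passed the test. The sets at -0.83 and 0.11 were dim, with mean signals of 4.61 and 3.84. The second set of Psmb3 had -0.42 (adjusted p = 0.010). Some genes that did not pass with the set used passed with another. These were Psma7 (-0.31, adjusted p = 0.028), Psmd6 (-0.28, adjusted p = 0.025) and Psmd11 (-0.36 and -0.14, adjusted p = 0.038 and 0.045). The further sets of Psmb4 (-0.11), Psmc2 (-0.02) and Psmd13 (-0.34) did not pass, nor did those of Psmd11 at 0.31 and -0.26. With the mean of a gene's probe sets 25 genes were lower (13.5% of all genes), 21 of them among the 24. Psmb7, Psma2, Psmd12 and Psmd14 were read by a single set.

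The number of genes called depended on the tumors used more than the median did. It was 15 without control 3 (6.8% of all probe sets lower), 15 without control 4 (7.25%) and 13 without MEKi/CD40 1 (6.81%). The median was -0.32 to -0.24 over all fits that left out 1 tumor. The tumor numbers in the sample titles fall into a low series, which holds all MEKi/CD40 tumors and 2 of the 5 control tumors, and a high series. Their meaning was not given. Within the low series the median was -0.34 and 1 gene, Psmc6, was called, while 1.04% of all probe sets were lower. With the series as a block 11 genes were called (5.65% of all probe sets lower). In the fit of all tumors of the 2 groups the share was 9.37%.

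Mitosis genes and fibroblast markers moved with the same comparison, and adipocyte and skeletal muscle markers were high in single MEKi/CD40 tumors. The 9 adipocyte markers measured of 11 had a mean log2 signal between 3.6 and 10.8 in MEKi/CD40 tumors, against 3.13 to 3.87 in control tumors, with MEKi/CD40 2 and MEKi/CD40 4 highest, and 0 of the 9 passed the test. Leaving out these 2 tumors and anti-CD40 3 left 2 MEKi/CD40 and 5 control tumors in this comparison. In that fit 9 of the 41 genes were lower, against 4.82% of all probe sets, with a median of -0.24. The part of the smaller group in the lower count was not tested. With the adipocyte mean as a covariate 8 were lower (4.35% of all probe sets) with a median of -0.25. Skeletal muscle markers (12 of 12 measured) had a mean of 7.89 in MEKi/CD40 4 and of 2.45 to 2.68 in the other MEKi/CD40 tumors, against 2.49 to 2.96 in control tumors, and 0 of the 12 passed the test. Of 13 mitosis genes measured of 14, such as Mki67 and Top2a, all 13 were lower in MEKi/CD40 tumors, with a mean log2 signal of 8.63 to 9.25 against 10.4 to 10.9 in control tumors. Of 10 fibroblast markers, 8 were higher, with a mean of 12.9 to 13.1 in MEKi/CD40 tumors against 10.4 to 11.1 in control tumors. The part of muscle, dividing cells and fibroblasts in the lower subunit levels was not tested.

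MEKi alone gave smaller differences from control. Of the 41 genes, 1 was lower (3.83% of all probe sets and 8.2% of those above the floor were lower) and 0 were higher (3.99% of all probe sets), with 10 at an unadjusted p under 0.05 (20.9% of all probe sets, which include those at the floor), and the median difference was -0.09. The gene called was the base ATPase Psmc4, at 12.64, 13.02, 12.82, 12.87 and 12.96 in MEKi tumors, against 13.25, 13.25, 13.45, 13.29 and 13.05 in control tumors (difference -0.40 ± 0.09, adjusted p = 0.034). All MEKi tumors lay below all control tumors, but the call was lost in 8 of 10 fits without 1 tumor (adjusted p up to 0.076). No overlap was found in 3 genes (4.57% of all probe sets), the others being Psma6 and Psmc3ip with differences of -0.28 (adjusted p = 0.055) and -0.52 (adjusted p = 0.083). MEKi tumors 1 and 3 were the lowest of their group over the 34 genes, at -0.23 each relative to the control mean, and the other 3 lay between -0.07 and 0.01. The cutting subunits Psmb5, Psmb6 and Psmb7 had differences of -0.09, -0.11 and -0.09 with adjusted p between 0.45 and 0.63.

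With the adipocyte mean as a covariate, 14 of the 41 genes were lower in MEKi than in control tumors (4.44% of all probe sets) with a median of -0.28. Psmc4, the gene called without the covariate, was not among the 14. The adipocyte mean was 3.55 to 4.98 in MEKi tumors. Mitosis genes, at 9.47 to 10.0 in MEKi tumors, were lower than control in 13 of 13 cases, and 5 of 10 fibroblast markers were higher, with a mean of 11.7 to 12.4 in MEKi tumors against 10.4 to 11.1 in control tumors. The part of dividing cells and fibroblasts was not tested.

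Anti-CD40 alone had 0 of 41 genes called by limma, as of all probe sets (0%), and 4 genes at an unadjusted p under 0.05 (5.38% of all probe sets). The median difference from control was 0.01. The lowest of these 4 p-values was that of Psme1, at 13.27, 13.18, 13.21 and 13.09 in anti-CD40 tumors and at 12.91 to 13.08 in control tumors (difference 0.19 ± 0.05, adjusted p = 0.61). Every anti-CD40 tumor lay above every control tumor in this gene, which was so for 0.637% of all probe sets, and in 0 genes did every anti-CD40 tumor lie below (1.05% of all probe sets). Psmd5 and Psma7 had differences of 0.14 and 0.13, and Psme3 had -0.17, so that both PA28 genes had fitted values of opposite sign.

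When the inhibitor was added to anti-CD40, the subunits were lower again. In MEKi/CD40 against anti-CD40 tumors, 20 of 41 genes were lower (7.19% of all probe sets, 15.4% of those above the floor) and 0 were higher (4.42% of all probe sets), with a median of -0.29. In 29 genes the groups did not overlap, against 10.8% of all probe sets. Psmb7 was at 10.87 to 11.07 in MEKi/CD40 tumors, against 11.80, 11.68, 11.78 and 11.61 in anti-CD40 tumors (difference -0.77 ± 0.06, adjusted p = 0.0027), and Psmc6 was at 12.24 to 12.36 in MEKi/CD40 tumors, against 13.01, 12.87, 13.06 and 12.87 in anti-CD40 tumors (-0.64 ± 0.05, adjusted p = 0.0028). The alpha subunits Psma3, Psma1 and Psma2 followed with differences of -0.38, -0.46 and -0.35. Psma3 was at 13.50 to 13.59 in MEKi/CD40 tumors, against 13.85 to 13.97 in anti-CD40 tumors, and no tumor of one group reached the other in any of these 5 genes. Psmb5 (-0.28, adjusted p = 0.034) and Psme1 (-0.38, adjusted p = 0.035) passed here, and Psmb6 (-0.26, adjusted p = 0.063) and Psme3 (-0.48, adjusted p = 0.054) did not. These values share the MEKi/CD40 tumors with the comparison against control. Mitosis genes were lower in 13 of 13 cases here, with a mean of 8.63 to 9.25 in MEKi/CD40 tumors against 10.4 to 10.8 in anti-CD40 tumors, and 5 of 10 fibroblast markers were higher, with a mean of 12.9 to 13.1 in MEKi/CD40 tumors against 10.7 to 11.7 in anti-CD40 tumors. The part of either in the lower subunit levels was not tested. Leaving out the 3 tumors with the highest adipocyte means leaves 2 MEKi/CD40 and 3 anti-CD40 tumors. In that fit 1 gene was called (0.52% of all probe sets lower) and the median was -0.22. Without anti-CD40 1, 2 or 3 or MEKi/CD40 1 the count was 11, 13, 11 and 12 (5.28%, 3.9%, 4.05% and 4.76%).

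When anti-CD40 was added to the inhibitor, 39 of the 41 differences lay below 0, but 2 genes were lower (1.77% of all probe sets and 3.77% of those above the floor) and 0 higher (0.737% of all probe sets), and the median was -0.18 (-0.11 after cyclic loess). Of the 13 mitosis genes 3 were lower here and of the 10 fibroblast markers 0 passed the test. Psmc6 was at 12.24 to 12.36 in MEKi/CD40 tumors, against 12.62, 12.71, 12.62, 12.77 and 12.74 in MEKi tumors (difference -0.38 ± 0.04, adjusted p = 0.019). Psmb7 was at 10.87 to 11.07 in MEKi/CD40 tumors, against 11.35, 11.62, 11.50, 11.75 and 11.60 in MEKi tumors (-0.61 ± 0.08, adjusted p = 0.025). No overlap was seen in 9 genes (5.8% of all probe sets): Psma1, Psma2, Psmb1, Psmb7, Psmc1, Psmc6, Psmd12, Psme3 and Psme4. The calls depended on the tumors used. Without MEKi 2, MEKi 4 or MEKi 5, 0 genes were called (0.0422% to 0.0488% of all probe sets lower). Without MEKi 3, MEKi/CD40 1 or MEKi/CD40 2, 1 gene was called (0.318% to 0.357%).

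Whether the drugs together did more than the sum of each alone was tested by the interaction term over all 18 arrays. It passed in 3 of 41 genes, all negative (1.58% of all probe sets were called with a negative term, 3.38% of those above the floor, and 1.06% of all with a positive term), and the median of the 41 terms was -0.24, against -0.04 for probe sets above the floor, and -0.13 after cyclic loess. Psmc6 had a term of -0.50 ± 0.07 (adjusted p = 0.0037), Psmb7 of -0.67 ± 0.12 (adjusted p = 0.010) and Psme4 of -0.58 ± 0.13 (adjusted p = 0.033). In these genes the difference from control did not pass the test for either agent alone, with -0.13 for MEKi and 0.13 for anti-CD40 in Psmc6, -0.09 and 0.06 in Psmb7, and 0.04 and 0.11 in Psme4. Psme4 was at 12.09 to 12.51 in MEKi/CD40 tumors, 12.62 to 12.97 in MEKi tumors, 12.69 to 12.97 in anti-CD40 tumors and 12.57 to 12.81 in control tumors, so that the last 3 groups overlapped. Psmc6 and Psmb7 passed in all 18 fits without 1 tumor, and Psme4 in 8 of them. With the mean of all probe sets of a gene, the terms of Psmc6 (-0.25, adjusted p = 0.29) and Psme4 (-0.18, adjusted p = 0.42) no longer passed.

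The 3 inducible cutting subunits were set against the constitutive subunits they replace within each array. Psme1 was set against the other PA28 gene read, Psme3, which is not its constitutive form. The difference of 2 log2 signals of 1 array is free of an offset that both share. A scaling that varies with the signal level would not cancel. A shift of this difference between groups describes unequal change. These tests were rerun with quantile normalization and not with cyclic loess. The 3 inducible genes Psmb8, Psmb9 and Psmb10 did not pass the test in any comparison. Their differences were 0.03, 0.30 and -0.05 in MEKi/CD40 against control tumors and 0.24, 0.53 and 0.17 in anti-CD40 against control tumors. In 4 pairs of genes and 5 comparisons, 8 of 20 exact two-sided permutation tests had an adjusted p under 0.05. This number was 0 without control 1, 2, 3 or 4 or any MEKi tumor, and 13 without control 5. Without such a tumor some comparisons hold 4 against 4 tumors. The smallest exact permutation p possible is then 0.029 instead of 0.0079. The counts therefore do not show by themselves that a result rests on a given tumor.

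Psmb9 minus its counterpart Psmb6 was -0.86, -0.92, -0.88 and -0.84 in MEKi/CD40 tumors, against -1.64, -1.39, -1.64, -1.48 and -1.15 in control tumors. The shift was 0.59 (exact permutation p = 0.016, adjusted p = 0.040), and in anti-CD40 against control tumors it was 0.56 (exact permutation p = 0.016, adjusted p = 0.040). Between MEKi/CD40 and anti-CD40 tumors it was 0.03 (exact permutation p = 0.66). In MEKi against control tumors it was 0.27 (exact permutation p = 0.032, adjusted p = 0.063), which did not pass, and in MEKi/CD40 against MEKi tumors the shift was 0.31 (exact permutation p = 0.0079, adjusted p = 0.026).

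Psmb10 minus Psmb7 gave another order. It was 1.67, 1.37, 1.91 and 1.77 in MEKi/CD40 tumors, against 1.01, 1.16, 0.97, 1.01 and 0.96 in control tumors, a shift of 0.66 (exact permutation p = 0.0079, adjusted p = 0.026). In anti-CD40 against control tumors the shift was 0.11 (exact permutation p = 0.079, adjusted p = 0.11). This pair stood apart in MEKi/CD40 tumors, where Psmb7 was low. Psmb8 minus Psmb5 shifted by 0.25 in MEKi/CD40 against control tumors (exact permutation p = 0.048, adjusted p = 0.087), which did not pass.

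Psme1 minus Psme3 was 3.38, 3.27, 3.16 and 3.18 in MEKi/CD40 tumors, against 2.84, 2.77, 2.58, 2.95 and 2.81 in control tumors, a shift of 0.46. In anti-CD40 tumors it was 3.25, 3.18, 3.12 and 3.07, a shift of 0.37 from control, and in MEKi tumors 2.69 to 2.87, a shift of 0.01. Both shifts in anti-CD40 treated tumors had the smallest p that the design allows (exact permutation p = 0.0079, adjusted p = 0.026). Interferon-gamma response genes, 12 of 14 measured, had a mean log2 signal of 11.0 to 12.2 in MEKi/CD40 tumors, 10.5 to 10.9 in MEKi tumors, 11.1 to 11.5 in anti-CD40 tumors and 10.3 to 11.0 in control tumors, and their part in these shifts was not tested.

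**Figure D4:**
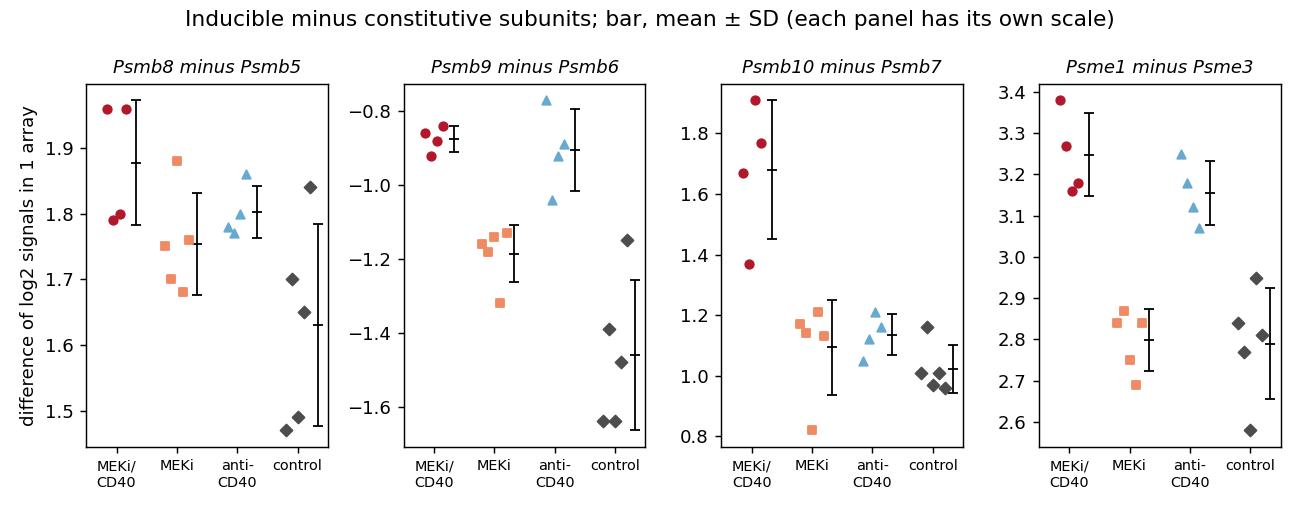
Log2 signal of an inducible gene minus that of the second gene of its pair on the same array (vertical axis, own scale in each panel) in the 18 tumors, by group. Psme3 is not the constitutive form of Psme1. Points are tumors and bars are mean ± SD. Psmb10 minus Psmb7 is high in MEKi/CD40 tumors (1.37 to 1.91 against 0.96 to 1.16 in control tumors), while Psme1 minus Psme3 is high in MEKi/CD40 and anti-CD40 tumors.

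The subunits varied together from tumor to tumor. Over the 18 arrays the median Pearson correlation was 0.82 among the 14 core genes, 0.75 among the 17 base and lid genes and 0.78 between core and cap, against 0.07 between these genes and 10807 other genes above the floor. After each group's mean was taken off, the medians were 0.65, 0.57 and 0.60, against 0.04. All genes of an array share its RNA and scaling, so the values are a description. In the medians of 0.07 and 0.04, positive and negative correlations offset each other. They therefore do not show that the co-variation is particular to the subunits. Psmc3 followed the other subunits most closely (median correlation 0.86) and Psmd8 least (0.43), with Psmd11 at 0.51. Psme4 was at 0.62, and at 0.19 once group means were taken off.

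Of 27 genes that assemble, assist or feed the proteasome, 19 could be read. In MEKi/CD40 against control tumors 8 of the 19 were lower and 0 higher, against 9.37% lower and 5.5% higher of all probe sets and 20.1% lower of those above the floor. Usp14, an enzyme that trims ubiquitin chains at the cap, was at 11.00, 11.04, 11.10 and 11.19 in MEKi/CD40 tumors, against 11.84, 11.61, 11.69, 11.76 and 11.60 in control tumors (difference -0.62 ± 0.06, adjusted p = 0.0015). Rad23b, which shuttles ubiquitinated proteins to the cap, was at 11.80, 11.84, 11.77 and 11.82 in MEKi/CD40 tumors, against 12.39, 12.17, 12.22, 12.27 and 12.25 in control tumors (-0.45 ± 0.04, adjusted p = 0.0013). Uchl5, the other deubiquitinase of the cap, was at 9.52, 9.85, 10.13 and 10.00 in MEKi/CD40 tumors, against 10.90, 10.92, 10.85, 11.04 and 10.69 in control tumors (-1.01 ± 0.13, adjusted p = 0.0031), so that its signal was 49.8% of control. Groups did not overlap in any of these 3 genes. The core chaperone Psmg2 (-0.55 ± 0.07, adjusted p = 0.0037) fell, as did its partner Psmg1, Txnl1, Ubqln4 and Ufd1, while the maturation factor Pomp (-0.08, adjusted p = 0.66) and the segregase Vcp (0.04, adjusted p = 0.60) did not pass the test.

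MEKi tumors had 0 of the 19 called against control tumors (3.83% of all probe sets were lower), and 7 had an unadjusted p under 0.05 (20.9% of all probe sets). The 20.9% includes sets at the floor, whereas the 19 genes were above it on every array, so it is not a like measure. Against anti-CD40 tumors 8 were lower in MEKi/CD40 tumors (7.19% of all probe sets, 15.4% of those above the floor). Against MEKi tumors 3 were lower in MEKi/CD40 tumors (1.77% and 3.77%), namely Psmg2, Rad23b and Usp14. The interaction term was negative and passed in 3 of the 19 (1.58% of all probe sets), which were Rad23b (-0.49, adjusted p = 0.0065), Usp14 (-0.57, adjusted p = 0.015) and Psmf1 (-0.43, adjusted p = 0.040), an inhibitor of the core.

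Of the factors that set proteasome gene transcription, 3 of 4 were read, and none was lower in any comparison (0% to 9.37% of all probe sets). In MEKi against control tumors 1 was higher (3.99% of all probe sets), and in MEKi/CD40 against control tumors 1 was higher (5.5%). Nfe2l1 was at 11.14, 11.00, 11.00, 10.93 and 10.96 in MEKi tumors, against 10.37, 10.40, 10.58, 10.46 and 10.69 in control tumors, and rose by 0.51 ± 0.07 (adjusted p = 0.0074). In MEKi/CD40 tumors it was at 11.18, 10.83, 10.54 and 11.00, a difference of 0.39 ± 0.13 from control (adjusted p = 0.11). Ngly1, the enzyme that removes sugars from the Nfe2l1 protein on its way to activity, was at 9.94, 10.12, 9.77 and 10.05 in MEKi/CD40 tumors, against 9.60, 9.66, 9.38, 9.68 and 9.42 in control tumors, and rose by 0.42 ± 0.09 (adjusted p = 0.024). Nfe2l2 had differences of 0.06 in MEKi/CD40 and 0.08 in MEKi tumors against control, neither of which passed the test (adjusted p = 0.87 and 0.63).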

How the data were processed

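RNA from pieces of 18 MC38 tumors, not sorted into cell types, was hybridized to Affymetrix mouse expression arrays. The authors deposited log2 signals made with RMA in Chipster (version not given in the sources used here), with 45101 probe sets, of which 64 are controls. Values ran between 2.16 and 16.34. A probe set was taken as at the floor of the signal on an array below 3, or where a value under 6 was repeated on at least 6 arrays within 0.3. Arrays give no read depth, so their number limits the precision. Groups followed the treatment given in the labels. Each pair of groups was fitted with limma 3.58.1 in R 4.3.3 on the deposited values of those arrays, and the interaction of inhibitor and antibody over all 18 arrays, with Benjamini-Hochberg adjustment over 45037 probe sets and a threshold of 0.05. The fits were also run on simulated data in which probe sets varied independently, unlike the subunits here. Differences within an array were compared by exact two-sided permutation tests. Values per tumor or group are given for the 5 genes with the lowest adjusted p among those called in each comparison, for Psmb5, Psmb6, Psmb7, Psmd4, Psmd14, Psme1, Psme3 and Psme4, for genes at the floor and for the extreme differences. The other genes given with all values were up to 4 of a pathway list in order of p. Psmb3, Psmd11 and other genes outside these choices are given by their fitted values only. The genes and lists were chosen with earlier results of these data known. Alternatives covered the variance model, normalization, probe set choice, title number series, replicate number, adipocyte markers and leaving out each tumor.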

Additional observations from a re-analysis of the deposited data

Results flagged for a closer look

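Of 76 pairs of a gene and a treatment group, 2 held a tumor far from the others of its group by Dixon's criterion, which chance alone gives in about 1 of 20 groups. Psmd12 was at 13.33 in anti-CD40 1 and at 13.22 in each of the other 3 anti-CD40 tumors. Psmd4 was at 12.20 in MEKi/CD40 2, against 12.43 to 12.47 in the other MEKi/CD40 tumors. MEKi/CD40 2 was also the tumor with the highest adipocyte mean (10.8 on the log2 scale), whose part in the low Psmd4 value was not tested.

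In 3 genes the effect of the inhibitor differed between tumors with and without anti-CD40 by the interaction term of limma. The term was -0.67 for Psmb7, -0.50 for Psmc6 and -0.58 for Psme4, each with all 4 MEKi/CD40 tumors below all tumors of the other groups.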

How the results depend on the processing

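With 4 or 5 tumors per group, counts of called genes moved far more than median differences. The alternatives for the helper and regulator lists and the fit of the high title series alone were chosen after seeing the data. In brackets is the share of the probe sets tested, or of the genes with mean sets, that were lower in the same fit. MEKi/CD40 against control (24 genes, 9.37%) gave 15 genes (7.98%) and a median of -0.19 with cyclic loess. It gave 11 (5.65%) when blocked by title series and 1 (1.04%) in the low series alone. With the adipocyte covariate it gave 8 (4.35%), and 9 (4.82%) without the 3 adipocyte-rich tumors. MEKi against control (1 gene, 3.83%) gave 3 (4.19%) with the fit over all arrays and 0 (1.19%) with an intensity trend. Without dim sets it gave 4 (15.7%), and with quantile normalization 3 (4.08%). Cyclic loess gave 4 (4.21%), x sets allowed 2 (3.83%) and mean sets 6 (7.41%). The count was 0 when blocked by series (2.81%) and in the low (0.0422%) or the high series alone (0.00666%). With the adipocyte covariate it was 14 (4.44%) with a median of -0.28, and Psmc4 was not among them. MEKi/CD40 against anti-CD40 (20 genes, 7.19%) gave 32 (11.5%) with the fit over all arrays and 13 (4.46%) with a trend. It gave 10 (3.91%) with the covariate, and 1 (0.52%) with a median of -0.22 without the 3 tumors. MEKi/CD40 against MEKi (2 genes, 1.77%) gave 10 (6.19%) with the fit over all arrays and 0 (0.00444%) with a trend. It gave 5 (9.15%) without dim sets and 1 (2.73%) with mean sets. The count was 0 when blocked by series (0.0511%) and in the low series alone (0.0133%). It was 1 (0.315%) with the covariate and 0 (0.466%) without the 3 tumors. The interaction (3 genes, 1.58%) gave 1 (1.69%) with mean sets, where the shares are those with a negative term. Cyclic loess moved its median of -0.24 to -0.13, and that of MEKi/CD40 against MEKi of -0.18 to -0.11. Helpers and regulators in MEKi/CD40 against control (9 genes, 8 lower and 1 higher) were counted in both directions. They gave 14 with the fit over all arrays (12.7% of all probe sets lower) and 5 when blocked by series. The count was 0 in the low series alone, 4 with the covariate and 4 without the 3 tumors. For settings other than the fit over all arrays, the shares are those given above for this comparison. The cause of these changes was not tested.

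The labels do not say whether the replicate numbers pair the tumors. Same-numbered tumors of different groups correlated at a median of -0.03 (25 pairs) and others at 0.00 (96 pairs). These are not correlations of the deposited signals, which lay at 0.987 or more within a group. They showed no pairing but cannot exclude it. With the replicate block 1 gene (0.182% of all probe sets lower) was called in MEKi/CD40 against control and 0 (0%) in MEKi against control. The count was 6 (1.8%) in MEKi/CD40 against anti-CD40 and 0 (0%) in MEKi/CD40 against MEKi. It was 2 (0.908%) in the interaction, and 0 helpers and regulators were called.

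Leaving out 1 tumor gave 13 to 25 genes (median -0.32 to -0.24) in MEKi/CD40 against control. There 6.8% to 10.1% of all probe sets were lower. The count was 0 to 2 (-0.13 to -0.06) in MEKi against control, with 1.53% to 3.73% of all probe sets lower. MEKi/CD40 against anti-CD40 gave 11 to 24 (-0.33 to -0.23), with 3.9% to 8.4%. MEKi/CD40 against MEKi gave 0 to 3 (-0.22 to -0.13), with 0.0422% to 1.24%. The interaction gave 2 to 4, with 0.822% to 1.95%. Of helpers and regulators 7 to 11 were called in either direction, and 0 to 13 of the 20 within-array tests passed. The within-array tests gave 0 without control 1, 2, 3 or 4 or any MEKi tumor and 13 without control 5. These counts also follow the coarser p-values possible with 4 against 4 tumors. In MEKi against control the count was 0 without control 1, 2, 3 or 4, MEKi 1 or MEKi 3, and 2 without control 5 or MEKi 4. Anti-CD40 against control gave 0 genes in all settings run, with a median of -0.00 to 0.04 over the fits without 1 tumor. Psmb9 minus Psmb6 in MEKi/CD40 against anti-CD40 turned to -0.015 without anti-CD40 2.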
